A study of Mus musculus with 2 samples.

Results

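Tumour neutrophils were the cells given the name Neutro in the cell table deposited with the series. They made up 120 of 7815 cells, 91 of the 2975 cells of the NTT library and 29 of the 4840 cells of the RTT library. Neutrophils in which C1qa, a complement gene of macrophages, reached 1000 CPM, the share of the cell's unique molecular identifiers (UMIs) scaled to a total of 1e6, are described apart from the rest as C1qa-high cells. There were 13 such cells in NTT and 15 in RTT, which left 78 and 14 C1qa-low neutrophils. Among C1qa-low cells the highest C1qa value was 919 CPM in NTT and 570 CPM in RTT, and among C1qa-high cells the lowest was 1778 CPM in NTT and 5064 CPM in RTT. The split is a rule on C1qa itself, so C1qa levels are a description of it.

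Both libraries came from YUMM3.3, a mouse melanoma line with Braf V600E and loss of Cdkn2a, grown in C57BL6 mice and taken at day 12 by the design text, although the methods also name day 10 for such samples. NTT tumours grew from cells naive to targeted therapy and RTT tumours from their counterparts with acquired resistance to it, and no treatment of the mice is named for these samples. Live CD45+ cells were sorted and sequenced with the 10x Genomics 3′ chemistry, 1 tumour and 1 library per condition. Mice were 6 to 12 weeks old by the methods, with sexes matched within an experiment, and the sex for these tumours is not given in the sources used here. With 1 library per condition no test between conditions was possible: each interval below is a 95% interval that covers counting error only, and a gene is called higher or lower when its pooled CPM differs by 2-fold or more.

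Neutrophils are short-lived granulocytes made in the bone marrow under granulocyte colony-stimulating factor. They enter tissue along gradients of chemokines that bind CXCR2, and they carry preformed granule proteins and a large store of the calcium-binding pair S100A8 and S100A9. In tumours they are known as a source of IL-1β, prostaglandins and further chemokines, and of itaconate made by the enzyme encoded by Acod1.

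Regulatory sequence is shown for 4 genes whose levels the results turn on: Cxcl2 and Cxcl3, neutrophil-attracting chemokines that were among the leading genes of the NTT cells, and Isg15 and Rsad2, interferon-stimulated genes that were lower in RTT neutrophils, the first among the more abundant of its list and the second the one with the largest ratio. The stretches are from RefSeq promoters of GRCm38.p6 (250 bases before to 50 after the gene start) and are printed on the gene's own strand. Capitals mark matches, on either strand, to an NF-kB motif (GGG, any 2 bases, then TTTCC) in the chemokines and to an interferon-stimulated response element (GAAA, any 2 bases, then GAAA) in the other pair. In Isg15 the run of capitals covers matches that overlap.
Cxcl2, chr5:90903762-90903870, plus strand: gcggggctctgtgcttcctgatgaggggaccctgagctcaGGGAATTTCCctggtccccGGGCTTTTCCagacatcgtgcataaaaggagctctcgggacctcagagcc
Cxcl3, chr5:90785988-90786077, plus strand: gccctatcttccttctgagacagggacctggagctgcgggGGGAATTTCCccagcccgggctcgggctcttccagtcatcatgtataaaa
Isg15, chr4:156200835-156200936, minus strand: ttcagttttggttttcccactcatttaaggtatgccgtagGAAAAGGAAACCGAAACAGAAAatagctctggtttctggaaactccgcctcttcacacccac
Rsad2, chr12:26456523-26456612, minus strand: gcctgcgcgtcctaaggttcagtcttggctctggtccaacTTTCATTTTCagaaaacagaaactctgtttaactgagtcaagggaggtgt

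Distances are from the start of the RefSeq promoter entry, which for Cxcl2 is base 90903899 and lies inside the gene as annotated below. The Cxcl2 matches begin 97 and 78 bases before that start and the Cxcl3 match 73 bases before its own. In Isg15, 3 overlapping matches begin 78, 72 and 66 bases before the start, and the single Rsad2 match, on the opposite strand, lies 120 bases before it. The NF-kB letters were found in 4 of 8 chemokine promoters with an entry (Ccl9, Cxcl1, Cxcl2 and Cxcl3) and in 1.63% of all 32851 promoters. The response element was found in 13 of 24 promoters of the interferon-stimulated list and in 3.44% of all promoters. Neither motif was found in the 5 promoters of the marker genes used below. A match describes the letters and is not a measured binding site.

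The cells of the name are described by 5 marker genes. They are S100a8 (chromosome 3, 90668978 to 90670035) and S100a9 (90692632 to 90695721), Retnlg, which encodes a resistin-like secreted protein, Csf3r, the receptor for granulocyte colony-stimulating factor, and Acod1. All 5 were at their highest in neutrophils among the 11 NTT populations of at least 50 cells. S100a8 stood at 34867 CPM (34325 to 35415) in NTT neutrophils, and the next population, the dendritic cells named DC3, was at 203 CPM. Neutrophils held 92.2% of all S100a8 UMIs of the NTT library, 92.9% of those of S100a9 and 92.0% of those of Retnlg, although they made up 2.31% of its UMIs. For Csf3r that share was 31.0%, with 1212 CPM in neutrophils and 110 CPM in inflammatory monocytes, the next population. At least 3 of the 5 markers were detected in 88 of 91 NTT neutrophils, in 12 of 14 C1qa-low RTT cells and in 14 of 15 C1qa-high RTT cells. The 5 cells with neither S100a8 nor S100a9 were 3 C1qa-high NTT cells and 2 C1qa-low RTT cells. Most C1qa-low cells thus carried the markers of their name, while the C1qa-high cells carried macrophage genes as well. Because the cells were named from clusters of genes of this kind, these levels describe the name and do not test it.

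**Figure D1:**
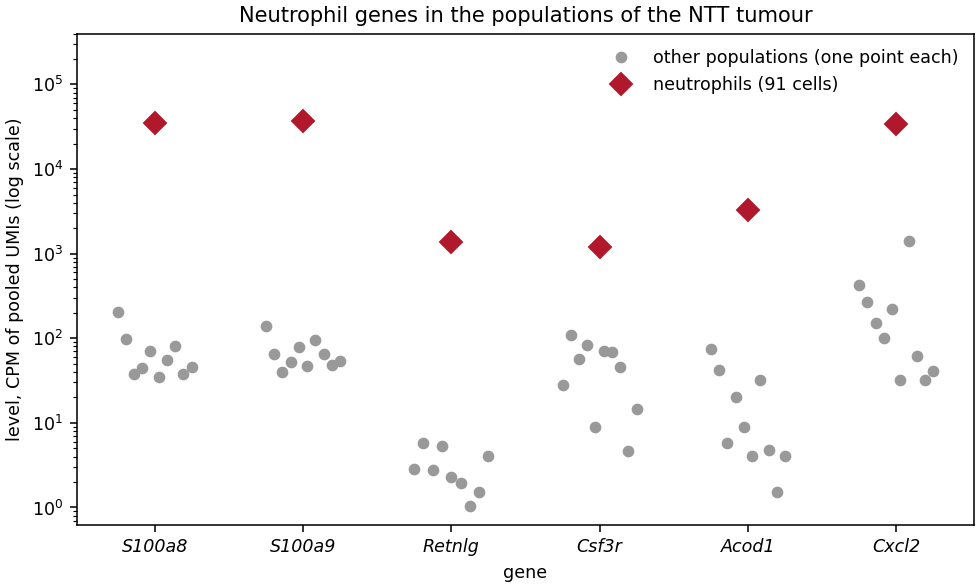
Pooled level in CPM (log scale) of 6 genes in the populations of the NTT library with at least 50 cells. The diamond is the neutrophils and each grey point is another population, with genes at 0 in a population not drawn. In all 6 genes the neutrophils lie above every other population, by the widest margin for S100a9 (37078 against 138 CPM in the next) and by the narrowest for Csf3r (1212 against 110 CPM).

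Neutrophils were shallow cells. The median was 3891 UMIs in C1qa-low NTT neutrophils and 2324 in C1qa-low RTT neutrophils (range 1468 to 4348), against 5444 in the other NTT cells and 8346 in the other RTT cells. C1qa-high cells were deeper, at 6186 in NTT and 10868 in RTT. A total of 7 barcode sequences occurred in both libraries, 1 of them on an NTT neutrophil and 0 on an RTT neutrophil. Free RNA was gauged in NK cells, which should lack these genes: 31.5% of the 178 NTT NK cells (median 5358 UMIs) had an S100a8 UMI, against 95.6% of the 91 NTT neutrophils (median 4141 UMIs). With every cell thinned to 1400 UMIs, which left out 1 NTT NK cell and no neutrophil, the shares were 9.04% and 92.3%. For Cxcl2 they were 26.4% and 94.5% before thinning and 9.60% and 92.3% after it, and for Acod1 4.49% and 93.4% before and 2.26% and 82.4% after.

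In NTT, neutrophils made up 3.06% of sorted cells (2.47 to 3.74) and in RTT 0.599% (0.402 to 0.859), a difference of -2.46 percentage points (-3.17 to -1.84). Counted over C1qa-low cells alone, the shares were 2.62% (2.08 to 3.26) and 0.289% (0.158 to 0.485). The C1qa-high cells were 14.3% of the neutrophils in NTT (7.83 to 23.2) and 51.7% in RTT (32.5 to 70.6). Over the same libraries, the share of monocytes and macrophages with C1qa at 1000 CPM was 51.2% in NTT and 83.2% in RTT. Pooled C1qa in NK cells, which should lack it, was at 41.5 CPM in NTT and 814 CPM in RTT. The part of free RNA in the C1qa-high shares was not tested. Shares of sorted CD45+ cells depend on the other populations in the sort, and 1 tumour per condition gives no measure of the spread between tumours.

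The genes with the largest ratios between NTT neutrophils and the other 2884 NTT cells included calgranulins, chemokines, chemoattractant receptors and the enzyme genes Acod1, Ptgs2 and Hdc. Of 3006 genes at a mean of 50 CPM or more, 398 were 2-fold higher in neutrophils (13.2%) and 930 were 2-fold lower (30.9%), with a median log2 ratio of -0.51. Scaling by trimmed mean of M-values (TMM) raised all ratios by 0.61, which turned the split into 715 higher and 325 lower. Ratios between -0.61 and 0 therefore turn positive under that scaling. Because the cells were named from clusters of these same genes, the ratios describe the population and test nothing.

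The 20 leading genes began with S100a9 at a log2 ratio of 9.12 and S100a8 at 8.98. Il1f9, which encodes the cytokine IL-36γ, followed at 8.94 with 384 CPM in neutrophils and 0.782 CPM in other cells, and then came Retnlg at 8.93, G0s2, an inhibitor of triglyceride lipase, at 8.32 and the protease gene Asprv1 at 7.87. Receptors in the list were Hcar2, the receptor for niacin and β-hydroxybutyrate, at 7.60, Cxcr2 at 7.37 and Ccrl2, which binds chemerin, at 4378 against 63.9 CPM. Granule and protease genes were Lcn2, encoding the iron-sequestering lipocalin, at 6.57 and Mmp9, the gelatinase, at 5.90. The other 9 were Cxcl2 at 7.36, Acod1 at 7.36, Cstdc4 at 7.23, Ankrd33b at 6.94, Ptgs2, which encodes cyclooxygenase-2, at 5.84, Cxcl3 at 5.75, Hdc, the enzyme that makes histamine, at 5.59, Ccl3 at 5.51 and Osgin1 at 5.46. All 20 were also 2-fold higher than in the 1615 NTT monocytes, where the background over 2882 genes was 13.2% higher and 27.2% lower. Those monocytes are part of the other cells that set the ranking. In the other library, 18 of the 20 were 2-fold higher in the 14 C1qa-low RTT neutrophils than in other RTT cells. The background there was 26.9% of 3300 genes, and 1 of the 20, Cxcl3, had no UMI in the RTT neutrophils. The RTT cells were named on the same map from genes of this kind, so that count is a description and no independent check.

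At the other end stood genes of proteins that other leukocytes make in quantity. Crip1, a small zinc-binding protein, was at 355 CPM in NTT neutrophils and 2822 CPM in the other cells (log2 ratio -2.99), and S100a4, a relative of the calgranulins, was at 225 and 1342 CPM (-2.58). The monocyte chemoattractant Ccl12 was at 121 and 782 CPM (-2.69). Npm1, Lgals1, Hint1, Fabp5, Tubb5, Ptma and H2-Aa completed the lowest 10, between -2.26 for Npm1 and -1.98 for H2-Aa. All 10 ratios lie below the TMM shift and keep their sign under it.

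**Figure D2:**
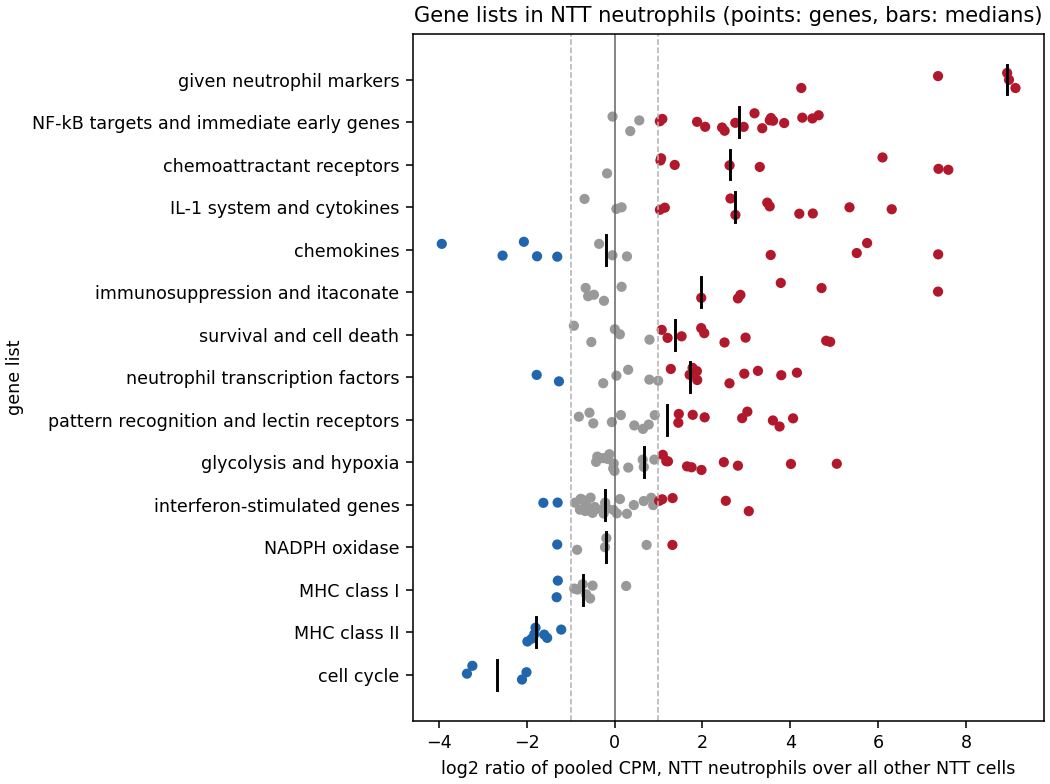
Log2 ratio of pooled CPM between the 91 NTT neutrophils and the 2884 other NTT cells for the genes of 15 lists. Points are genes, black bars list medians, and dashed lines mark 2-fold. NF-kB targets and immediate early genes lie to the right (17 of 20 beyond 2-fold), MHC class II genes to the left (7 of 7) and chemokines on both sides (4 higher, 5 lower).

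The counts by list that follow stand beside 13.2% of all genes higher and 30.9% lower. Chemokine genes lay on both sides, with neutrophil attractants high and monocyte attractants low. Cxcl2 (chromosome 5, 90903871 to 90905938) reached 34392 CPM in NTT neutrophils, close to S100a8, and neutrophils held 79.6% of its NTT UMIs, with Spp1 macrophages next at 1410 CPM. Ccl3 at 4875 CPM and Ccl4 at 6459 CPM were higher by 5.51 and 3.55, and Cxcl3 at 759 CPM by 5.75. Those 4 were the higher ones among 12 chemokine genes kept by the filter. The monocyte attractants Ccl2 (-2.55) and Ccl7 (-3.93), and Ccl9 (-2.06), Cxcl9 (-1.76) and Cxcl16 (-1.30) were lower, and the median over the list was -0.20, positive under TMM, against -0.51 over all genes.

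Receptors for chemoattractants were mostly higher than in the other NTT cells, 8 of 9 genes kept of 13 listed, with a median of 2.62. Besides Hcar2, Cxcr2 and Ccrl2 these were Ptafr, the receptor for platelet-activating factor (986 against 99.8 CPM), Cxcr4, which retains neutrophils in the marrow (190 against 30.9 CPM), Ccr1, C5ar1 and Fpr2. Ltb4r1, the receptor for leukotriene B4, was at 247 and 278 CPM, a small difference that turns positive under TMM. Cxcr1, the other receptor for CXCL8-type chemokines, had 15 UMIs in 10 NTT neutrophils and 0 in the other 2884 cells. Against NTT monocytes alone, 5 of 9 kept receptor genes were higher and 4 were within 2-fold, where 13.2% of all genes were higher.

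In the IL-1 system 10 of 13 kept genes were higher, where 13.2% of all genes were, and 0 lower, with a median of 2.75. Il1b stood at 15127 CPM in neutrophils and 2248 CPM in other cells (log2 ratio 2.75), and neutrophils held 13.7% of its NTT UMIs, since far more cells of other names had it, the next level being 3506 CPM in Spp1 macrophages. Il1rn, which encodes the receptor antagonist, was at 1827 against 294 CPM, Nlrp3, the inflammasome sensor, at 768 against 41.7 CPM, and Osm, oncostatin M, at 867 CPM (4.51). The decoy receptor Il1r2 was higher by 1.15 over all other cells, but type 2 conventional dendritic cells had slightly more of it (1953 against 1832 CPM). Il6 and the signalling receptor Il1r1 had 0 UMIs in NTT neutrophils.

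Targets of NF-kB and immediate early genes were mostly higher in neutrophils: 17 of 20 were so, 0 lower, and the median was 2.84. Ier3 (5508 against 285 CPM), Dusp1, a phosphatase of MAP kinases (5091 against 225 CPM), and Nfkbia, the inhibitor of NF-kB (4897 against 402 CPM), were the most abundant. Egr1 (4.65) and Atf3 (3.53) were higher too, and Nfkb1, Ier2 and Sod2 differed by less than 2-fold. Tissue was digested at 37 °C for more than an hour before sorting, and the part of that step in these levels was not tested.

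Genes of survival and of the hypoxia response were higher in part. In the survival list 9 of 14 kept genes were higher and 0 lower, among them Mcl1, on which neutrophil survival depends (3337 against 850 CPM), and Gadd45b (5612 against 187 CPM). Among 23 kept genes of glycolysis and hypoxia 10 were higher and 0 lower, led by the glucose transporter Slc2a3 (5.06), the lipid droplet gene Hilpda (4.01) and Vegfa (2.81). The enzymes of the glycolytic trunk Ldha (1287 CPM in both), Pkm (-0.02) and Pgk1 (-0.15) were near the level of other cells on total counts and above it under TMM.

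Acod1, whose product makes itaconate, led the immunosuppressive list at 3310 CPM against 20.1 CPM, and 6 of the 11 kept genes were higher. Slc7a11, the cystine transporter, was higher by 4.71, Arg2 by 3.78 and Cd274, which encodes PD-L1, by 2.86. Arg1 was not among them, at 108 CPM in neutrophils and 170 CPM in other cells (-0.66, which TMM brings close to 0). The leukotriene gene Alox5ap was level (0.06), so that within the eicosanoid list Ptgs2, at 4875 CPM, was the single higher one of 6 kept genes, whereas 3 were lower.

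Granule genes differed by granule type. Of 5 azurophil genes listed, Mpo, Ctsg and Ms4a3 were absent from the deposited genes and could not be measured. The other 2, Elane and Prtn3, were at 2.21 and 15.4 CPM and did not pass the filter. The specific granule gene Camp was absent as well. In the list of gelatinase granules and secretory vesicles 4 of 6 kept genes were higher and 0 lower, namely the proteases Mmp9 (5.90), Mmp8 (2.46) and Adam8 (1.26) and the receptor Fpr2 (1.06), and the median was 1.16. Of 7 specific granule genes kept, 3 were higher (Lcn2, Ltf and Ngp), but a single cell set the values of the latter pair. That cell, with 4617 UMIs and 944 genes, held 181 of 181 Ngp UMIs and 56 of 59 Ltf UMIs of the NTT neutrophils. It had the highest S100a8 value of all, at 295647 CPM, and 0 UMIs of Cxcl2, Il1b, Acod1, Ptgs2 and Cxcr2. Ngp and Ltf are known from immature neutrophils of the marrow.

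Genes for MHC class II and for the cell cycle were low. All 7 MHC class II genes were 2-fold lower (median -1.80, and 4 of 7 under TMM), with H2-Aa at 2222 against 8780 CPM. Of 9 MHC class I genes 2 were lower and 0 higher, a smaller share than the 30.9% of all genes. The cell cycle genes Mki67 and Top2a were at 8.83 and 22.1 CPM, and 4 of 4 kept genes of that list were lower. The other NTT cells include 103 macrophages named TAM_cycling, and their part in that count was not tested. Against NTT monocytes 1 gene of the list was kept, and it was lower (-1.35). Among interferon-stimulated genes 5 of 29 were higher, a share near the 13.2% of all genes, namely Slfn4 (3.06), Rsad2 (2.53), Oasl2 (1.32), Isg15 (1.08) and Slfn1 (1.02), while 2 were lower, where 30.9% of all genes were. The median of that list, -0.21, turned positive under TMM, with 9 genes higher. Isg15 itself was higher in inflammatory monocytes (5246 CPM) than in neutrophils (3813 CPM).

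Among transcription factors, 10 of 17 kept genes were higher and 2 lower. Cebpb, the factor of emergency granulopoiesis, was at 4312 against 703 CPM, Mxd1 at 1770 against 229 CPM and Ets2 at 1509 against 109 CPM. Irf8, a factor of monocytes and dendritic cells, was lower (-1.77). The list of neutrophil markers that the study used was higher in 20 of 20 genes, but it was chosen on cells that include these and is not independent evidence.

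Markers of other cell types were checked in the same cells. The summed level of T and NK cell markers was 26.5 CPM in NTT neutrophils against 1175 CPM in the other cells, with 4 of 10 genes at 0, and dendritic cell markers summed to 6.62 against 364 CPM with 4 of 7 at 0. Eosinophil markers went the other way, at 44.1 against 0.991 CPM over 3 genes with 1 at 0, most of it from 17 Ccr3 UMIs in 11 cells. Monocyte markers, 7 genes since Ly6c2 was absent from the deposited genes, summed to 5243 CPM against 9805 CPM. Per C1qa-low NTT cell they had a median of 815 CPM and a highest value of 27291 CPM. Macrophage markers summed to 7503 CPM against 19920 CPM, with 0 of 15 genes at 0. In C1qa-low NTT cells the macrophage sum ran from 0 to 13893 CPM with a median of 1426 CPM, and in C1qa-high NTT cells from 17782 to 36891 CPM with a median of 22604 CPM.

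NTT neutrophils differed among themselves chiefly in the calgranulins and in chemokines. In 88 cells thinned to 2000 UMIs, with 3 shallower cells left out, the variance over the mean was 91.3 for S100a8, 72.2 for S100a9, 64.9 for Cxcl2, 43.9 for Ccl4, 31.7 for Spp1, 31.0 for Retnlg, 28.2 for Fth1, 21.9 for G0s2 and 19.1 for Ccl3, against a median of 1.22 over 2144 genes. Without the Ngp-bearing cell the S100a8 ratio was 52.1. Cxcl10 had a ratio of 67.6, but 62.7% of its UMIs were in 1 cell. Levels per cell in the 91 cells spanned 0 to 295647 CPM for S100a8 (median 29703), 0 to 168161 CPM for Cxcl2 (median 26161) and 0 to 51605 CPM for Il1b (median 14881).

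Rank correlations were taken for a few chosen pairs of genes across 76 thinned C1qa-low NTT cells, the Ngp-bearing cell among them. Other pairs were not examined. S100a8 followed S100a9 (Spearman's rho 0.90) and Retnlg (0.49), and its rho with Cxcl2 was -0.18 and with Il1b -0.10. Cxcl2 followed Ptgs2 (0.61), Ccl3 (0.48) and Il1b (0.43). Isg15 followed Rsad2 (0.64) and Cd274 (0.50), and its rho with S100a8 was -0.06. The cells share 1 library, and these values describe them without a test.

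C1qa-low RTT neutrophils numbered 14, with 36402 UMIs in all, so that 1 UMI was worth 27.5 CPM. Against the 78 C1qa-low NTT cells, 866 of 2755 genes were 2-fold higher (31.4%) and 332 lower (12.1%), with a median log2 ratio of 0.45. Intervals that excluded no difference held for 391 and 146 of them. TMM scaling lowered every ratio by 0.75 and turned the split into 285 higher and 766 lower, so ratios between 0 and 0.75 turn negative under it. The values that follow are on total counts.

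Of the 5 marker genes, 3 were 2-fold lower in RTT and 0 higher, with a median of -1.49: S100a9 at 14587 against 41012 CPM (-1.49), Retnlg at 467 against 1543 CPM (-1.72) and Acod1 at 769 against 3836 CPM (-2.32). Csf3r was at 1868 CPM in RTT and 1341 CPM in NTT, Cxcr2 at 769 and 652 CPM, and G0s2 at 9560 and 9831 CPM. The first pair would be lower in RTT under TMM. Il1b per cell ran from 7938 through a median of 28982 to 41871 CPM in RTT and from 0 through 15333 to 51605 CPM in NTT. The ranges overlapped, and the pooled ratio was 0.63 (0.53 to 0.73) on total counts and negative under TMM. Il1r2, the decoy receptor, was higher in RTT at 3736 against 1862 CPM (1.00), and stayed above 0 under TMM.

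Most chemokine genes kept by the filter were lower in RTT, and S100a8 was lower by less than 2-fold. S100a8 per cell ran from 0 through a median of 6113 to 82741 CPM in RTT and from 0 through 32949 to 295647 CPM in NTT, with pooled levels of 20768 and 38311 CPM (log2 ratio -0.88). Cxcl2 per cell ran from 0 through 4410 to 64739 CPM in RTT and from 0 through 32495 to 168161 CPM in NTT, with a pooled ratio of -1.63 (-1.76 to -1.49). In both genes the RTT cells lay in the lower part of a range that overlapped that of NTT. Of 9 chemokine genes kept, 6 were 2-fold lower and 0 higher, where 12.1% of all genes were lower and 31.4% higher, including Ccl4 at 742 against 6665 CPM. Of the 13 chemokine genes listed, 7 had 0 UMIs in RTT, and any of them kept passed the filter only through the NTT cells. The count of 6 is therefore a description. Cxcl3 had 0 UMIs in RTT and 332 in NTT, which is at least 11.0-fold lower at a floor of 3 UMIs over the RTT cells. Cd274 was at 165 against 1219 CPM (-2.89).

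**Figure D3:**
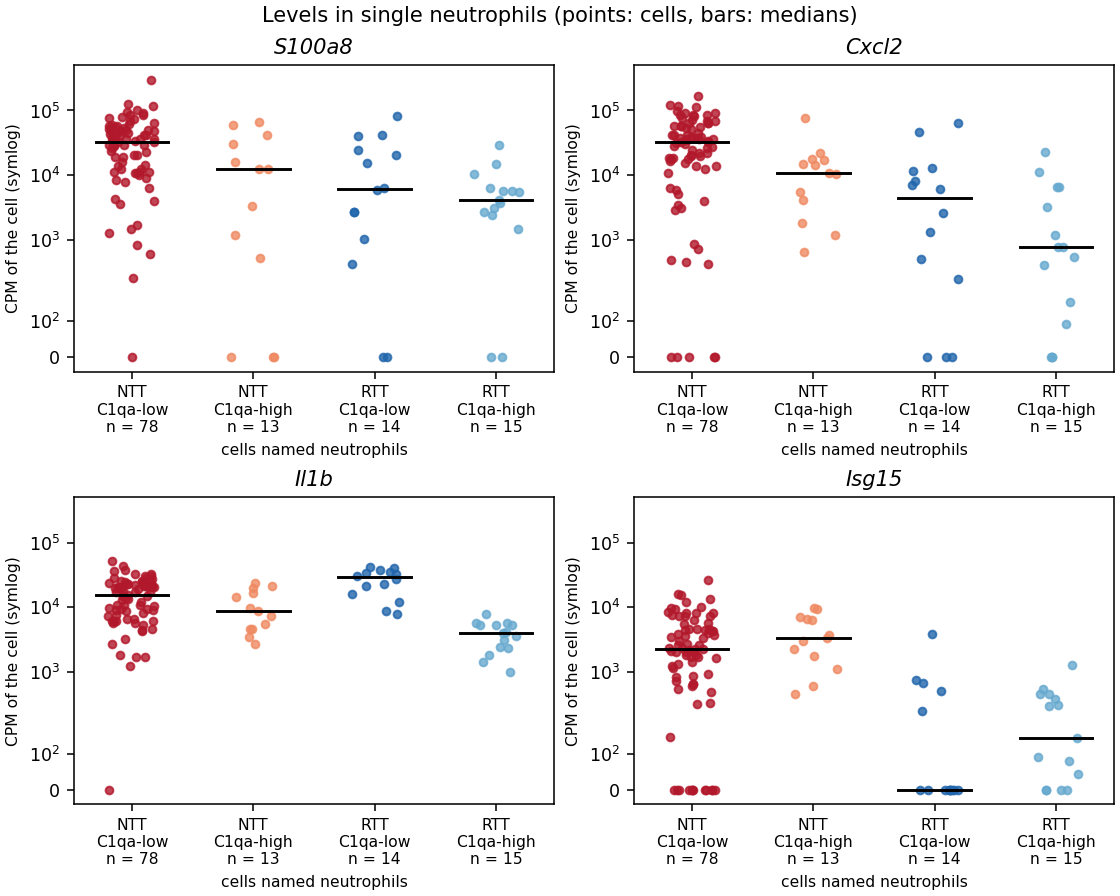
CPM of S100a8, Cxcl2, Il1b and Isg15 in each of the 120 neutrophils, on an axis that is linear below 200 CPM and logarithmic above. Points are cells and bars are medians of the 4 groups. Isg15 has a median of 2313 CPM in C1qa-low NTT cells and 0 CPM in C1qa-low RTT cells, while Il1b is present in all 14 of the latter.

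Interferon-stimulated genes were mostly lower in RTT neutrophils: 23 of 29 were 2-fold lower in RTT and 0 higher, where 12.1% of all genes were lower, and the list median was -1.68. Of the 29, 6 had 0 UMIs in RTT and passed the filter only through the NTT cells, so the count of 23 is a description. Isg15, a ubiquitin-like protein, had 17 UMIs in 5 of 14 RTT cells, 467 CPM against 3879 CPM in NTT (-3.05, interval -3.84 to -2.37). With cells thinned to 1400 UMIs it was detected in 4 of 14 RTT cells and in 60 of 78 NTT cells. Among NK cells the thinned shares were 16.3% in RTT and 36.7% in NTT (33.3% and 64.6% before thinning). Pooled Isg15 in NK cells was at 111 CPM in RTT and 737 CPM in NTT, and whether it was free RNA or their own was not tested. Rsad2, the antiviral enzyme viperin, had 1 UMI in RTT and 576 in NTT, a log2 ratio of -5.84 whose interval runs from -11.14 to -3.35. Slfn4 was at 110 against 998 CPM (-3.18), Gbp2 at 1 against 248 UMIs (-4.62, -9.93 to -2.13) and Ifitm3 at 934 against 4108 CPM (-2.14). The 6 genes within 2-fold were Ifitm1 (0.44) and Ifitm2 (0.61), both negative under TMM, Slfn1 (-0.22), Ly6e (-0.59), and Usp18 and Ifi205, which had 0 UMIs in RTT and were set to the floor of 3. Summed over the list, cells ran from 2514 through a median of 8070 to 21798 CPM in RTT and from 2452 through 17364 to 118156 CPM in NTT.

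**Figure D4:**
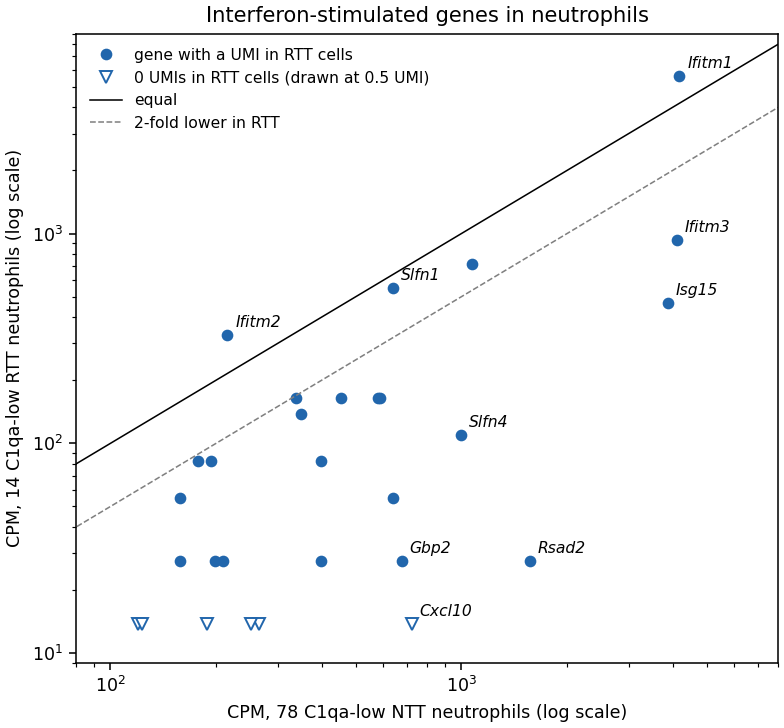
CPM of 29 interferon-stimulated genes in 14 C1qa-low RTT neutrophils against 78 C1qa-low NTT neutrophils, both axes logarithmic, with open triangles for genes with no RTT UMI, drawn at 0.5 UMI. Most points lie under the dashed 2-fold line, and Ifitm1 and Ifitm2 lie above the line of equal levels on total counts but not under TMM.

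Markers of monocytes and macrophages differed in the same direction, and their part in the result was not tested. Monocyte markers summed to 1538 CPM in C1qa-low RTT neutrophils and 4463 CPM in C1qa-low NTT neutrophils, and 4 of 7 were 2-fold lower. Macrophage markers summed to 1428 and 2846 CPM, with 5 of 15 genes at 0 in RTT and 2 of 15 in NTT, and cells reached at most 7986 and 13893 CPM. Without the neutrophils that had Apoe, H2-Aa or Plac8 at 1000 CPM, an alternative chosen after seeing the data that left 11 RTT and 47 NTT cells, 13 of 25 kept interferon-stimulated genes were lower and 1 higher, with a median of -1.06, against 12.3% lower over all genes. Isg15 was then at 495 against 4169 CPM (-3.07). The list was also lower in RTT in the 8 other populations with at least 50 cells in each library, by log2 ratios of summed CPM from -1.81 in type 1 conventional dendritic cells to -0.62 in inflammatory monocytes, beside -1.24 in neutrophils.

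The largest ratios in favour of RTT were led by Snrpg. That gene, for a protein of the spliceosome, was at 824 against 131 CPM (2.65), Eif5a, a translation factor, at 934 against 207 CPM (2.17), and Ptma at 1676 against 387 CPM (2.11). Arpp19, Srp14, Nfam1, Mef2a, Clec4n, Sec62 and D8Ertd738e followed between 1.83 and 1.66. The sign of Nfam1 turned when cells were thinned to 2000 UMIs (-0.45). In favour of NTT, beside Rsad2, Gbp2 and Cxcl3, were Slfn5, Stx11, Ms4a6b, Cflar, Ifi204, Bach1 and Fcgr4, with 1 or 2 RTT UMIs each and ratios from -3.86 for Slfn5 to -3.21 for Fcgr4. The ratio of Ms4a6b was 0.24 over all cells of the name. MHC class II genes came out higher in RTT in 4 of 7 cases, but 95.5% of their 287 UMIs lay in 1 cell.

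The 15 C1qa-high RTT neutrophils held neutrophil transcripts together with macrophage transcripts. Against the 14 C1qa-low RTT cells, 790 of 3237 genes were higher (24.4%) and 812 lower (25.1%). All 14 kept macrophage markers were higher, C1qa by the rule. Of the 15 markers of the list, 5 had 0 UMIs in the C1qa-low cells and could pass the filter only through the C1qa-high cells. The count of 14 is therefore a description. C1qc was at 5328 against 54.9 CPM (6.60), C1qb was higher by 6.32, and the Fc receptor-like gene Fcrls was at 3912 against 54.9 CPM (6.15). Apoe was at 18216 against 467 CPM (5.29), and Ms4a7 was at least 40.5-fold higher with 0 UMIs in the C1qa-low cells. Grn, Timp2 and Ms4a6b, with 1 UMI each in the C1qa-low cells, were also among the leading 10. Lower genes were led by Nr4a1 (-3.74), Cd24a (-3.40), Tiparp (-3.40), Lyst (-3.33), Csf3r (-3.29), Fos (-3.27), Il1r2 (-3.25), Btg2 (-3.19), Tnfaip2 (-3.04) and Ptgs2 (-2.96).

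Levels were then set beside the 2001 RTT macrophages named TAM_C1q. For 44 macrophage genes, 8-fold or more higher in TAM_C1q than in C1qa-low neutrophils, the C1qa-high cells stood at a median of 89.4% of the macrophage level (quartiles 82.7 to 95.1). For 81 neutrophil genes, 8-fold or more the other way, they stood at a median of 15.2% of the C1qa-low level (10.9 to 20.9), with S100a8 at 28.0%, Cxcl2 at 20.9%, Il1b at 13.3% and Csf3r at 10.2%. Both gene sets were chosen on the groups to which the cells were compared and not on the C1qa-high cells, but the macrophage genes include C1qa, which set the split, and C1qb and C1qc. Of 3214 genes, 136 (4.23%) were 2-fold higher than in TAM_C1q and 43 (1.34%) lower. Of the 136, 110 were also 2-fold higher in C1qa-low neutrophils than in TAM_C1q, where 431 of all 3214 were. Among the 43 lower ones were Ccl5, H2-Eb1, H2-Aa, Cd74 and H2-Ab1.

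Cell by cell, the 81 neutrophil genes took 2.53 to 8.72% of the UMIs of C1qa-high RTT cells (median 4.07), against 9.29 to 37.1% (median 22.5) in C1qa-low RTT cells and a median of 0.523% in TAM_C1q. The 44 macrophage genes took 5.58 to 12.4% (median 9.07), against 0.0445 to 0.970% (median 0.188) and a median of 10.3%. Without those 3 genes the other 41 took 3.90 to 9.55% of the UMIs of C1qa-high RTT cells (median 6.60) and 0.0429 to 0.913% of those of C1qa-low RTT cells (median 0.131). The ranges of the 2 groups lay apart in each of these measures, which the split on C1qa favours. The C1qa-high cells were also deeper, with a median of 10868 UMIs against 2324. How the study treated droplets with 2 cells is not given in the sources used here, no doublet caller was run, and the part of such droplets in these cells was not tested.

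**Figure D5:**
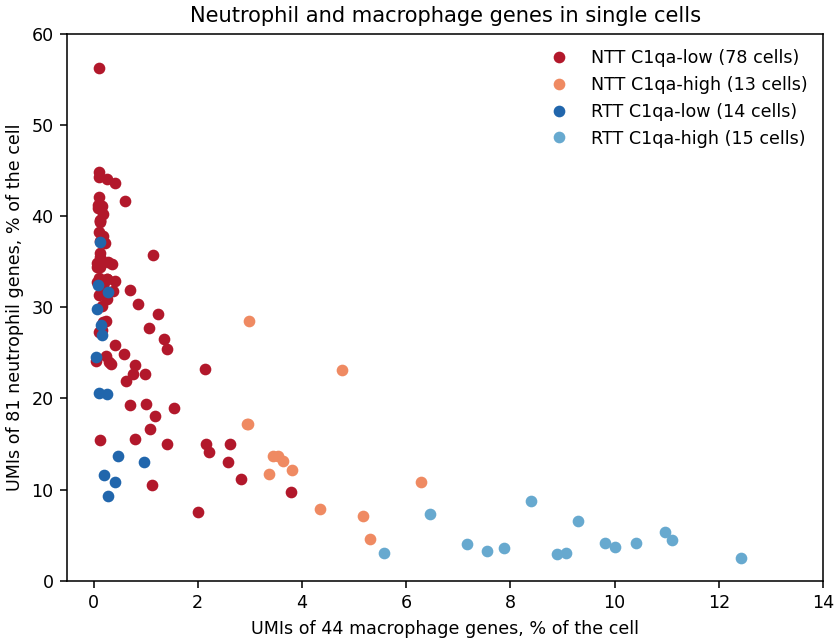
Percent of each neutrophil's UMIs in 81 neutrophil genes (vertical) against the percent in 44 macrophage genes (horizontal), genes chosen in RTT cells. The 15 C1qa-high RTT cells lie to the lower right, the 14 C1qa-low RTT cells along the vertical axis, and the 13 C1qa-high NTT cells between them.

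The 13 C1qa-high NTT cells had another profile of myeloid genes. Against C1qa-low NTT cells, 815 of 2787 genes were higher (29.2%) and 452 lower (16.2%). All 11 kept macrophage markers were higher, C1qa by the rule. Of the 15 listed, 2 had 0 UMIs in the C1qa-low NTT cells and could pass the filter only through the C1qa-high cells. The count of 11 is therefore a description. Among genes with at most 25% of their UMIs in 1 cell, which left out C1qc (4.91) and C1qb (4.54), the 10 leading were H2-Ab1 at 7262 against 973 CPM (2.90), H2-Aa (2.77), Lgals3bp (2.72), Cd74 (2.68), Aif1 (2.59), Scimp, Slc29a3, H2-Q7, Lair1 and Ly6a (2.26). Summed MHC class II genes ran from 913 through a median of 29801 to 54228 CPM per cell, and in C1qa-high RTT cells from 0 through 465 to 4606 CPM. Apoe was at 3695 CPM, and Fcrls, at 3912 CPM in the RTT cells, had 1 UMI. The 44 macrophage genes took 2.94 to 6.29% of their UMIs and the 81 neutrophil genes 4.54 to 28.5%. Spp1 (-4.53), Il1f9 (-4.34) and Hilpda (-3.33) were lower than in C1qa-low NTT cells.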

How the data were processed

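The authors made the deposited counts, whole-number UMIs per gene and cell, with Cell Ranger 6.1.1 on mm10 (GRCm38), kept cells with more than 1000 genes, under 15% mitochondrial and under 40% ribosomal reads, removed ribosomal and mitochondrial genes, and deposited 12584 genes in 7815 cells with their own cell names, set on a map corrected with Harmony. As deposited, 22 NTT and 6 RTT neutrophils have 1000 genes or fewer. Doublet treatment is not given in the sources used here. The library totals were 19634099 UMIs in NTT and 44712071 in RTT.

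Neutrophils were the cells named Neutro, split at C1qa 1000 CPM. The members and gene lists were chosen with earlier results of these data known. UMIs were summed per group and library, with cells never used as replicates, and scaled to CPM on all counts. Genes with a mean of 50 CPM over both sides and 2-fold or more were called. Intervals are at 95%: exact Poisson and binomial, exact conditional binomial for ratios and Newcombe's for differences of shares, all for counting error only. A group with 0 UMIs was set to 3 UMIs for a bound. Named genes were the 20 highest with at least 100 neutrophil UMIs and the 10 lowest with at least 500 CPM in other cells for NTT neutrophils, and the 10 highest and 10 lowest with at least 50 UMIs in the other comparisons. Genes with over 25% of the higher side's UMIs in 1 cell were left out of the highest genes and of both directions in the other comparisons, which dropped Ngp, Wfdc21 and F3 from the first. Also named were the 10 genes with the highest variance over mean and up to 8 members per list, those past 2-fold first and then those of a defining role. Genes named outside this rule, such as Cxcr1, and the Ngp-bearing cell were chosen after their values were seen. Shares of cells with a UMI were compared after thinning. All columns mapped to a library were used. Promoters and positions are from RefSeq and the GRCm38 annotation. The code was tested on simulated data. Python 3.11.15, numpy 2.4.6, scipy 1.17.1, pandas 2.3.3, matplotlib 3.10.9 and edgeR 4.0.16 (TMM factors alone) were used. Alternatives were TMM and median-of-ratios scaling, other filters, C1qa limits, thinning and cell sets. A gene of one comparison is not reported here.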

Additional observations from a re-analysis of the deposited data

How the results depend on the processing

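No paired analysis was possible because each condition had 1 tumour and 1 library, and for the same reason no replicate could be left out. Of 690 ratios of named genes under other settings, 687 kept their sign. The exceptions were in the comparison of RTT with NTT neutrophils: Nfam1 was at -0.45 with cells thinned to 2000 UMIs and at -0.0022 over all cells of the name, and Ms4a6b at 0.24 over all cells of the name. The causes were not tested. Most of these genes were chosen for large ratios, which makes a change of sign unlikely. A further 229 of the 690 ratios kept their sign but fell outside the counting interval of the ratio as first given.

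Counts of 2-fold genes depended on scaling. NTT neutrophils had 715 higher and 325 lower genes than other NTT cells under TMM and 750 and 284 under median-of-ratios scaling, and against monocytes 583 and 287, and 596 and 261. RTT against NTT neutrophils gave 285 and 766 under TMM and 332 and 741 under median-of-ratios scaling. The filter changed how many genes were tested. Against other NTT cells 1608 genes were lower at 25 CPM, 494 at 100 CPM, and 1063 higher and 3622 lower with no filter. Against monocytes 1285 were lower at 25 CPM, 459 at 100 CPM, and 1351 higher and 2825 lower with no filter. For RTT against NTT neutrophils 1477 were higher at 25 CPM, 384 higher and 193 lower at 100 CPM, and 2382 higher with no filter. For C1qa-high against C1qa-low RTT cells 458 were higher and 441 lower at 100 CPM, and 1575 lower with no filter.

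As ratios of summed counts, lists in NTT neutrophils stood at 3.13 for NF-kB targets and immediate early genes, 2.50 for the IL-1 system, 3.01 for chemoattractant receptors and -1.86 for MHC class II. Interferon-stimulated genes in RTT against NTT stood at -1.24 and macrophage markers, C1qa among them, in C1qa-high RTT cells at 5.44. Under both other scalings 4 MHC class II genes were lower and 9 interferon-stimulated genes higher in NTT neutrophils. Without cells with C1qa, Apoe, H2-Aa or Plac8 at 1000 CPM, a setting chosen after seeing the data, 13 genes of the interferon list were 2-fold lower in RTT neutrophils.

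The neutrophil share in NTT was 2.39% over cells with more than 1000 genes. It was 1.58% without the neutrophils with C1qa, Apoe, H2-Aa or Plac8 at 1000 CPM. Plac8 is itself among the 81 neutrophil genes, and whether the cells left out were mixed was not tested. In RTT the neutrophil share was 0.289% without C1qa-high cells at a limit of 1000 or 2000 CPM and 0.248% at 500 CPM. It was 0.227% without the neutrophils left out by the setting with Plac8. S100a8 in NTT neutrophils was at 36710 CPM as a mean of cells, 38311 CPM without C1qa-high cells and 31651 CPM in cells with more than 1000 genes, and S100a9 at 39187, 41012 and 34780 CPM. Retnlg was at 1592 CPM as a mean of cells and 1543 CPM without C1qa-high cells, Csf3r at 1358 and 1341 CPM, and Acod1 at 3836 CPM without C1qa-high cells. The variance over the mean of S100a8 was 44.1 at 1000 UMIs per cell, 90.97 without C1qa-high cells and 52.1 without the Ngp-bearing cell. The 36402 UMIs of the 14 C1qa-low RTT cells limit what can be seen there, since 1 UMI is worth 27.5 CPM.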
